A study of Homo sapiens with 32 samples.

Results

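Uracil in DNA was mapped in and around 10 genes that the tumour suppressor p53 switches on after DNA damage, namely CDKN1A, GADD45A, MDM2, PPM1D, BAX, BBC3, TP53I3, FAS, TNFRSF10B and SESN1. The genes were chosen by name from the known p53 pathway, not by a measured value, though with earlier results of these data known. They are 10 of the 20033 protein-coding genes that GENCODE release 44 places on the main chromosomes. Each was followed through a window made of the gene body and 20 kb on either side, and the measure was the covered share, the percentage of window bases that lie in uracil enriched regions of a library.

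The cells were HCT116, a human colorectal carcinoma line deficient in mismatch repair (MMR), and a line derived from it that became MMR proficient through an added chromosome 3. WT cells were MMR deficient, without drug and without transgene. All other HCT116 cells carried UGI, an inhibitor of uracil-DNA glycosylase. The paper describes a retrovirus that brought in UGI together with EGFP, with positive cells sorted, and also transient transfection. The sample titles do not give the route of each library. The UGI cells received no drug (NT_UGI and the MMR proficient NT_UGI_MMR), 20 µM 5FdUR (5FdUR_UGI and 5FdUR_UGI_MMR) or 100 nM raltitrexed (RTX_UGI and RTX_UGI_MMR) for 48 h. Each of these 7 conditions had 2 biological replicates, which gave 8 drug-treated and 6 non-treated HCT116 libraries, beside 1 library of untreated K562 leukaemia cells without transgene. The added chromosome carries more than MMR genes, and no drug-treated library lacked UGI, so MMR and the rest of that chromosome, or drug and drug with UGI, cannot be told apart.

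As background, p53 is a transcription factor that is stabilised when DNA is damaged and then binds response elements near its target genes. The targets stop the cell cycle, start apoptosis or, as MDM2 and PPM1D do, switch p53 off again. HCT116 is known to keep wild-type p53, whereas K562 lacks functional p53. 5FdUR and raltitrexed both inhibit thymidylate synthase, which starves DNA synthesis of thymine and lets uracil enter DNA, where uracil-DNA glycosylase would otherwise remove it. The values below measure uracil in DNA and not transcription, so whether these genes were induced was not measured here. The paper states that its method also detects fluorouracil, which 5FdUR can bring into DNA, so the 5FdUR values may hold both.

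The drug-treated libraries covered 17.1% to 18.9% of all known bases and the HCT116 libraries without drug 10.9% to 11.3%, with K562 at 10.99%. The authors chose the log2 threshold of each library so that the covered length was about equal within a condition, so these totals follow from that choice. Coverage was scaled in each library, so a region marks enrichment relative to the rest of the genome and not an amount of uracil. By dot blot, the paper measured far higher uracil levels in drug-treated UGI cells than in non-treated ones. The threshold, on the log2 scale of enriched over input coverage, was 0.13 to 0.20 in 5FdUR_UGI_MMR, 0.14 to 0.25 in 5FdUR_UGI, 0.25 to 0.27 in the RTX libraries and 0.25 to 0.33 without drug.

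The sequences that p53 recognises are what these genes are known for, and they show where the regions lay relative to them. In GRCh38, matches of the p53 consensus response element, with both cores intact and at most 2 mismatches in the other 12 of 20 bases, occurred in the windows of 5 of the 10 genes. They occurred in 36.7% of all 20033 protein-coding gene windows, and in 31.4% of those no shorter than the shortest (43.1 kb) and no longer than the longest (150.5 kb) of the 10 windows. Both strands were searched. Matches in 4 of the genes are given along the strand of the gene, with the 4-base cores in capitals.
CDKN1A, at chr6:36667258-36667277: agaCAAGcccgggCAAGgcc
CDKN1A, at chr6:36676449-36676468: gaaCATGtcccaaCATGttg
GADD45A, at chr1:67686775-67686794: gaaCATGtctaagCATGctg
BBC3, at chr19:47218171-47218190: aagCATGccccaaCATGccg
FAS, at chr10:88991309-88991328: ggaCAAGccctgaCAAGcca

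The matches of CDKN1A lie 9.19 kb before the annotated start of the gene and at that start, which GENCODE sets at the most upstream transcript. The match of GADD45A lies in the gene body, 1.58 kb past the start, that of FAS in the gene body, 37.5 kb past the start, and that of BBC3 downstream, 14.6 kb past the start. A match is a description of letters and by itself no proof of binding, which was not measured here. TNFRSF10B also had 2 matches in its gene body, which are not printed. No match was found for MDM2, PPM1D, BAX, TP53I3 and SESN1, which says only that these letters are not in their windows.

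The stretches that hold these letters were covered to different degrees. All 4 RTX libraries and 1 of the 4 5FdUR libraries covered both CDKN1A matches. In GADD45A it was the reverse, with 0 of 4 RTX libraries and both 5FdUR_UGI libraries covering the match, and in FAS no library covered it. The BBC3 match was covered in 2 RTX libraries and no 5FdUR library. No match was covered in any of the 6 non-treated libraries or in K562.

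The first comparison asked how the covered share of each gene differed between all drug-treated and all non-treated HCT116 libraries. Of the 10 genes, 5 were called higher and 0 lower: CDKN1A, TNFRSF10B, PPM1D, GADD45A and FAS. Over all 20033 protein-coding genes 51.5% were called higher and 9.59% lower, so the count among the 10 is close to that of the genome. The median difference was 32.2 percentage points over the 10 genes and 27.6 points over all genes. A call is an adjusted p below 0.05 in a two-sided exact permutation test over libraries, adjusted over all protein-coding genes by the Benjamini-Hochberg method. The test treats the 14 libraries as exchangeable, although they are 7 conditions with 2 replicates each. Replicates of a condition thus count as separate evidence. On means of conditions, which allow few splits, 0 of the 10 genes and 0% of all genes were called higher. A call there needs most of all genes to reach the smallest p, so this count cannot show a lack of difference. limma takes the spread of a gene from replicates within conditions, pooled over the 7 conditions and moderated across genes. Conditions with no region in either replicate add no spread, so it can understate that of the libraries compared. It called 9 of the 10 genes higher, all but SESN1, and 73.4% of all genes.

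The genes of cell cycle arrest come first. CDKN1A encodes p21, an inhibitor of cyclin-dependent kinases, at chr6:36676460-36687337 on the plus strand. With RTX its window was covered by 97.2% and 100% in RTX_UGI and by 78.2% and 100% in RTX_UGI_MMR. With 5FdUR it was covered by 100% and 50.5% in 5FdUR_UGI, but by 1.38% and 4.13% in 5FdUR_UGI_MMR. All 6 non-treated libraries and K562 were at 0, so the groups did not overlap. None of the other 9 genes had such a gap, which 24.6% of all genes showed upward and 5.79% downward. The drug-treated mean was 66.4% ± 42.8 (SD, n = 8), a difference of 66.4 points with an adjusted p of 0.0117 in the exact permutation test.

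GADD45A encodes a small stress protein that acts in growth arrest and DNA repair, at chr1:67685201-67688334. It was covered by 69.4% and 16% in 5FdUR_UGI, 10.2% and 1.62% in 5FdUR_UGI_MMR, 53.3% and 56.9% in RTX_UGI and 51.8% and 48.5% in RTX_UGI_MMR. Without drug its share was 2.55% in WT replicate 1, 7.19% in NT_UGI replicate 2 and 0 in the other 4 libraries. The RTX libraries lay close together and far above the non-treated ones, whereas 5FdUR_UGI_MMR replicate 2 fell among them. The drug-treated mean of 38.5% ± 25.2 (SD, n = 8) against 1.62% ± 2.91 (n = 6) gave a difference of 36.8 points with an adjusted p of 0.0129 in the exact permutation test.

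The feedback genes behaved unlike each other. MDM2, the ubiquitin ligase that marks p53 for degradation, lies at chr12:68808177-68845544 and had the lowest mean of the 10 genes over the 4 RTX libraries, at 9.69% and 18.3% in RTX_UGI and 14.3% and 0.646% in RTX_UGI_MMR. No 5FdUR library exceeded 3.36% and no non-treated library exceeded 1.29%, so the groups overlapped. The difference between drug-treated and non-treated libraries was 5.58 points with an adjusted p of 0.110 by the exact permutation test, which was not a call.

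PPM1D encodes WIP1, a phosphatase that turns off damage signalling, at chr17:60600193-60666280. Its window was covered by 75.8% and 63.8% in RTX_UGI, 64.1% and 79.1% in RTX_UGI_MMR, 38.9% and 21.3% in 5FdUR_UGI and 0 in both 5FdUR_UGI_MMR libraries. Without drug it lay between 0 and 1.79%, so 5FdUR_UGI_MMR did not stand apart while the other 6 drug-treated libraries did. The difference was 42 points with an adjusted p of 0.0310 in the exact permutation test.

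The genes of mitochondrial apoptosis were at 0 in every non-treated library and in K562. BAX, which permeabilises the outer mitochondrial membrane, lies at chr19:48954815-48961798 and was covered by 79.0% and 83.9% in RTX_UGI and 22.1% and 60.4% in RTX_UGI_MMR. With 5FdUR it reached 45.5% in 5FdUR_UGI replicate 1 and was at 0 in the other 3 libraries. BBC3, which encodes the BH3-only protein PUMA, lies at chr19:47220822-47232766 on the minus strand and was covered by 45.4% and 51.9% in RTX_UGI, 9.24% and 29.6% in RTX_UGI_MMR, and at most 0.345% with 5FdUR.

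Both genes had regions in all 4 RTX libraries, and the pooled drug difference was not called for either. It was 36.4 points for BAX (adjusted p = 0.0641) and 17.1 points for BBC3 (adjusted p = 0.110) by the exact permutation test. TP53I3, a quinone oxidoreductase tied to oxidative stress in apoptosis, lies at chr2:24077433-24085861 on the minus strand and followed the same order. It was covered by 41.2% and 71.9% in RTX_UGI, 40.7% and 59.5% in RTX_UGI_MMR, 10.5% in 5FdUR_UGI replicate 1 and 0 in all other HCT116 libraries. Its difference of 28.0 points had an adjusted p of 0.0641 by the exact permutation test and was not a call.

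The death receptor genes again differed from each other. TNFRSF10B encodes the TRAIL receptor DR5, at chr8:23020133-23069031 on the minus strand, and was covered by 94.4% and 99.6% in RTX_UGI and 72.9% and 79.2% in RTX_UGI_MMR. It was covered by 80.4% and 25% in 5FdUR_UGI and by 0.225% and 1.12% in 5FdUR_UGI_MMR, and by 0 to 3.37% without drug. The MMR proficient 5FdUR libraries lay within the range of the non-treated ones, and the other 6 drug-treated libraries lay above it. The difference was 55.2 points with an adjusted p of 0.0230 in the exact permutation test.

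FAS, the receptor of the Fas ligand, lies at chr10:88953813-89029605 and was one of 2 genes with regions in every non-treated library. Its share was 1.82% to 8.04% without drug, with a median of 4.62%, and 3.63% in K562. It was covered by 8.90% and 11% in 5FdUR_UGI and 22.3% and 23% in 5FdUR_UGI_MMR, and by 10.8% and 1.73% in RTX_UGI and 49.2% and 24.7% in RTX_UGI_MMR. The highest shares were in the MMR proficient libraries of both drugs, and RTX_UGI replicate 2 lay below the lowest non-treated library. The difference of 14 points had an adjusted p of 0.0375 in the exact permutation test.

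SESN1 encodes sestrin 1, a stress protein that restrains growth signalling, at chr6:108984309-109094846 on the minus strand. It had the highest share without drug of the 10 genes, 9.53% to 15.1% with a median of 11.5%, and 6.87% in K562. With 5FdUR it was nearly free of regions, at 0 and 0.864% in 5FdUR_UGI and 1.66% and 1.46% in 5FdUR_UGI_MMR. With RTX it was covered by 28.8% and 34.5% in RTX_UGI and 54% and 53.4% in RTX_UGI_MMR. The 3 groups did not overlap, with 5FdUR below and RTX above the non-treated libraries, and the pooled difference of 10.05 points was not a call (adjusted p = 0.378, exact permutation test).

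**Figure D1:**
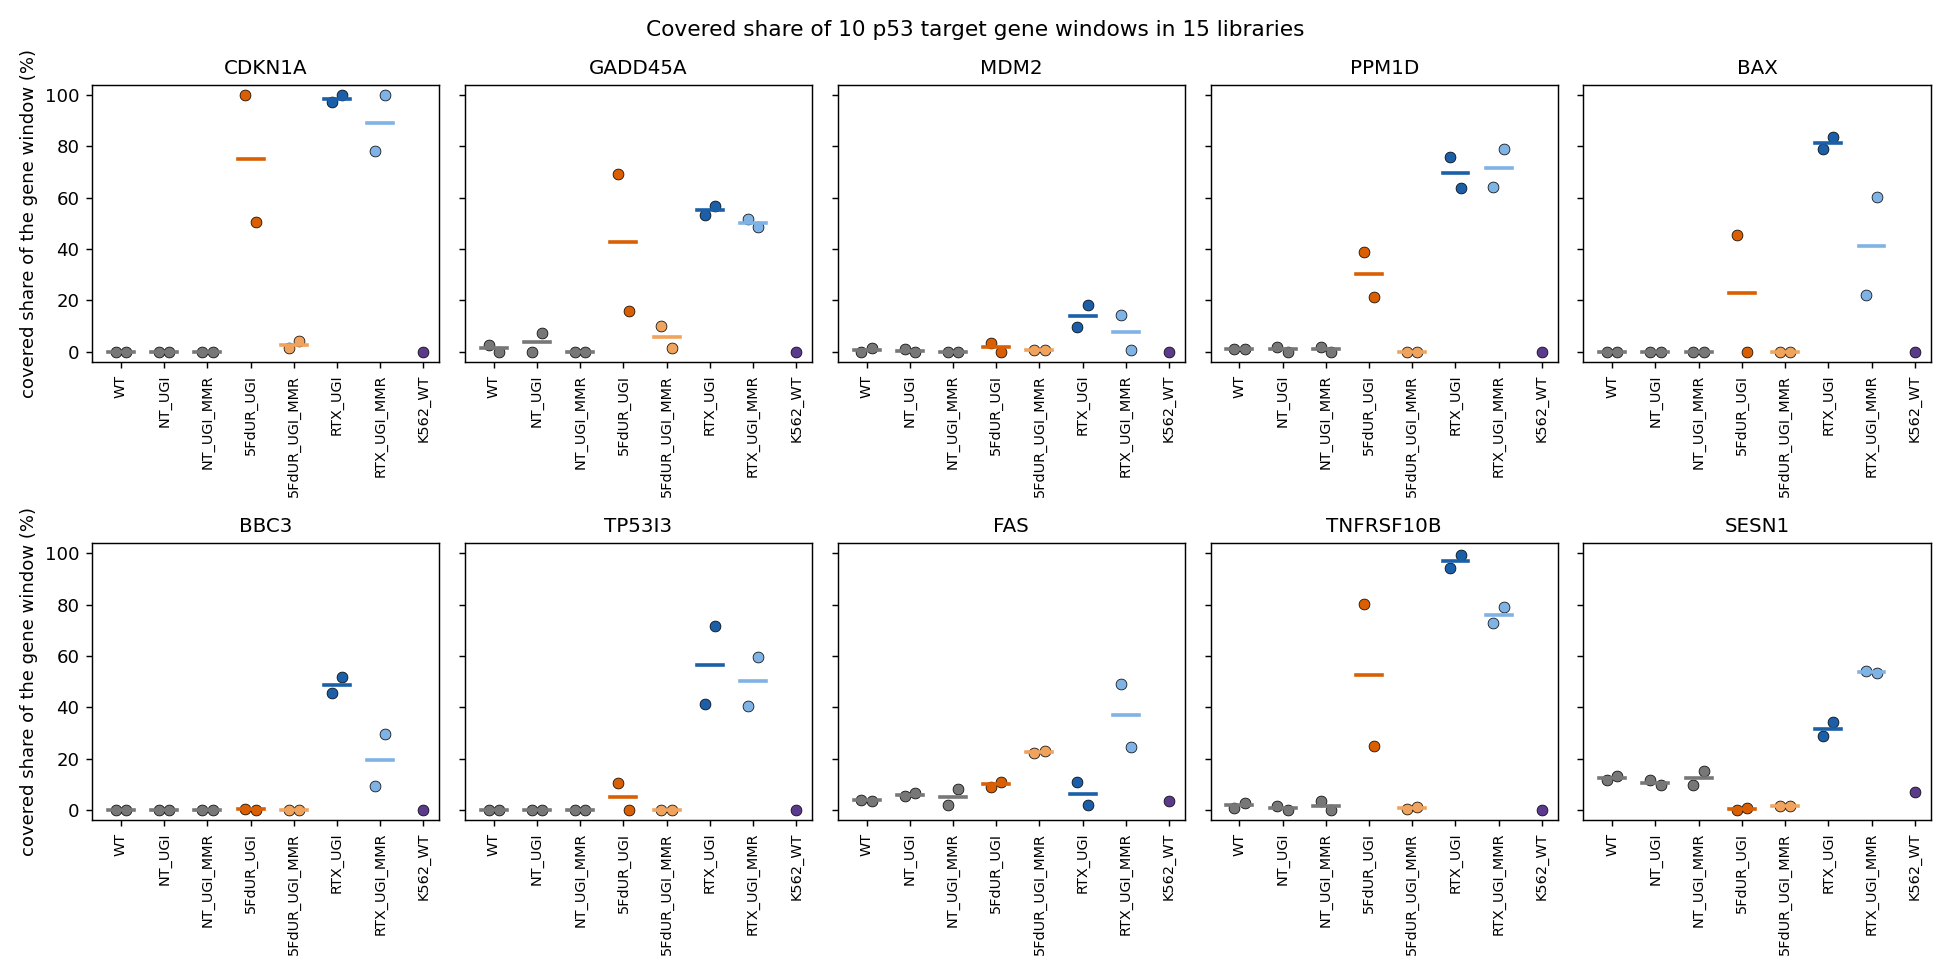
Covered share of each gene window (%) in the 15 libraries, by condition, with points for libraries and bars for the mean of 2 replicates. The RTX libraries lie above the grey non-treated libraries for all genes but FAS and MDM2, where they overlap, and the 5FdUR_UGI_MMR libraries stay within 10.2% for all genes but FAS.

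The calls of the pooled comparison were fragile for 3 of the 5 genes. When each of the 14 libraries was left out in turn, CDKN1A and GADD45A were called 14 times of 14, FAS 4 times and PPM1D and TNFRSF10B 3 times each. The count of genes called higher fell to 2 without any one of the 6 non-treated libraries or either RTX_UGI_MMR library, and to 3 without 5FdUR_UGI replicate 1 or either RTX_UGI library. It was 0 when only regions with a log2 value of at least 0.34 were used, where 5.64% of all genes were called higher, and 0 when each library was limited to its strongest 300 Mb of regions, where 9.18% of all genes were called higher.

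RTX and 5FdUR were then compared with the non-treated libraries on their own, and both comparisons share these 6 libraries. With RTX, 9 of the 10 genes were called higher and none lower, against 66.9% higher and 14.7% lower over all genes. All 4 RTX libraries lay above all 6 non-treated ones for 8 of the 10 genes, against 62.7% of all genes. The differences of the 9 genes ranged from 10.4 points in MDM2 (adjusted p = 0.0187) to 93.9 points in CDKN1A (adjusted p = 0.00661), by the exact permutation test. limma called all 10 genes higher and 67% of all genes. FAS, with 16.7 points, had an adjusted p of 0.0523 and was called without RTX_UGI replicate 2, with an adjusted p of 0.0162 in the exact permutation test.

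The 9 calls with RTX were made without each of the 10 libraries in turn. With regions of at least 5 kb, MDM2 (2.92 points, adjusted p = 0.505), BAX and BBC3 (both adjusted p = 0.0512) were not called, and at a log2 value of at least 0.34 MDM2 (adjusted p = 0.169) and SESN1 (adjusted p = 0.0539) were not, by the exact permutation test, where 51.6% and 57.6% of all genes were called higher. With regions limited to the strongest 300 Mb of each library, CDKN1A, TNFRSF10B and PPM1D were called higher, with differences of 93.9, 82.1 and 60.6 points, and 32.6% of all genes were called higher. In that setting FAS was called lower with RTX, by -3.94 points (adjusted p = 0.0396, exact permutation test), so its direction depended on the threshold.

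Mean shares with RTX ran from 93.9% ± 10.5 in CDKN1A, 86.5% ± 12.5 in TNFRSF10B and 70.7% ± 7.90 in PPM1D to 61.3% ± 28.0 in BAX, 53.3% ± 15.2 in TP53I3 and 52.6% ± 3.47 in GADD45A (SD, n = 4). SESN1 at 42.7% ± 13, BBC3 at 34.0% ± 19, FAS at 21.6% ± 20.7 and MDM2 at 10.7% ± 7.58 followed. Neighbours in this order differed by less than the larger of their SDs, except TNFRSF10B and PPM1D, and the libraries of all neighbours overlapped. Of all protein-coding genes, 4.18% had a higher mean share with RTX than CDKN1A, 11% than TNFRSF10B and 66.3% than MDM2.

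With 5FdUR, 3 genes were called higher (CDKN1A, GADD45A and FAS) and SESN1 was called lower, against 36.1% higher and 8.66% lower over all genes. CDKN1A, with 39.0 points, FAS, with 11.4 points, and SESN1, with -10.8 points, each had an adjusted p of 0.0124 in the exact permutation test, and their 5FdUR libraries did not overlap the non-treated ones. Such a gap was found upward in 32.1% of all genes and downward in 7.76%. GADD45A, with 22.7 points, had an adjusted p of 0.0329 and lost its call in 7 of 10 repeats that left out 1 library, namely either 5FdUR_UGI library, 5FdUR_UGI_MMR replicate 1, WT replicate 2, NT_UGI replicate 1 or either NT_UGI_MMR library, with adjusted p up to 0.0802 in the exact permutation test.

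The call of FAS with 5FdUR also depended on weak regions. With a log2 value of at least 0.34 its difference was -0.782 points. None of the 10 genes was called in that setting, where 0% of all genes were called in either direction. Nor were any called higher with regions of at least 5 kb or with the strongest 300 Mb. The counts over all genes in these settings are given in the closing section. The 5FdUR means were 26.7% ± 37.6 in TNFRSF10B, 15.1% ± 18.8 in PPM1D, 11.4% ± 22.8 in BAX, 2.61% ± 5.23 in TP53I3, 1.16% ± 1.5 in MDM2 and 0.0861% ± 0.172 in BBC3 (SD, n = 4), none of them a call by the permutation test. limma called 5 genes higher, PPM1D and TNFRSF10B beside the 3, against 57.5% of all genes.

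The drugs were compared with each other on 4 libraries each, where the 5FdUR values may include fluorouracil. For all 10 genes the mean was lower with 5FdUR than with RTX, with differences of -5.34 points in FAS, -9.57 in MDM2, -28.3 in GADD45A, -34.0 in BBC3 and -41.7 in SESN1, and of -50.0 to -59.9 points in BAX, TP53I3, CDKN1A, PPM1D and TNFRSF10B. All 5FdUR libraries lay below all RTX libraries in PPM1D, BBC3, TP53I3 and SESN1, as was so for 28.4% of all genes. The FAS difference was 3.86 points, with the sign turned, without RTX_UGI_MMR replicate 1 and 6.30 points with the strongest 300 Mb, and that of GADD45A was 40.4 points over the gene body alone, none of them a call. The exact permutation test called 0 of the 10 genes and 0% of all genes, and these 4 had an unadjusted p of 0.0286 and an adjusted p of 0.0731. The smallest p that 4 against 4 allows is 0.0286, and 11448 genes would have had to reach it for a call, where 7827 did.

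limma called 9 of the 10 genes lower with 5FdUR, all but FAS, against 50.4% of all genes lower and 26% higher. Its lowest adjusted p was 1.94e-06 for SESN1 and its highest among the 9 was 0.0234 for GADD45A.

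**Figure D2:**
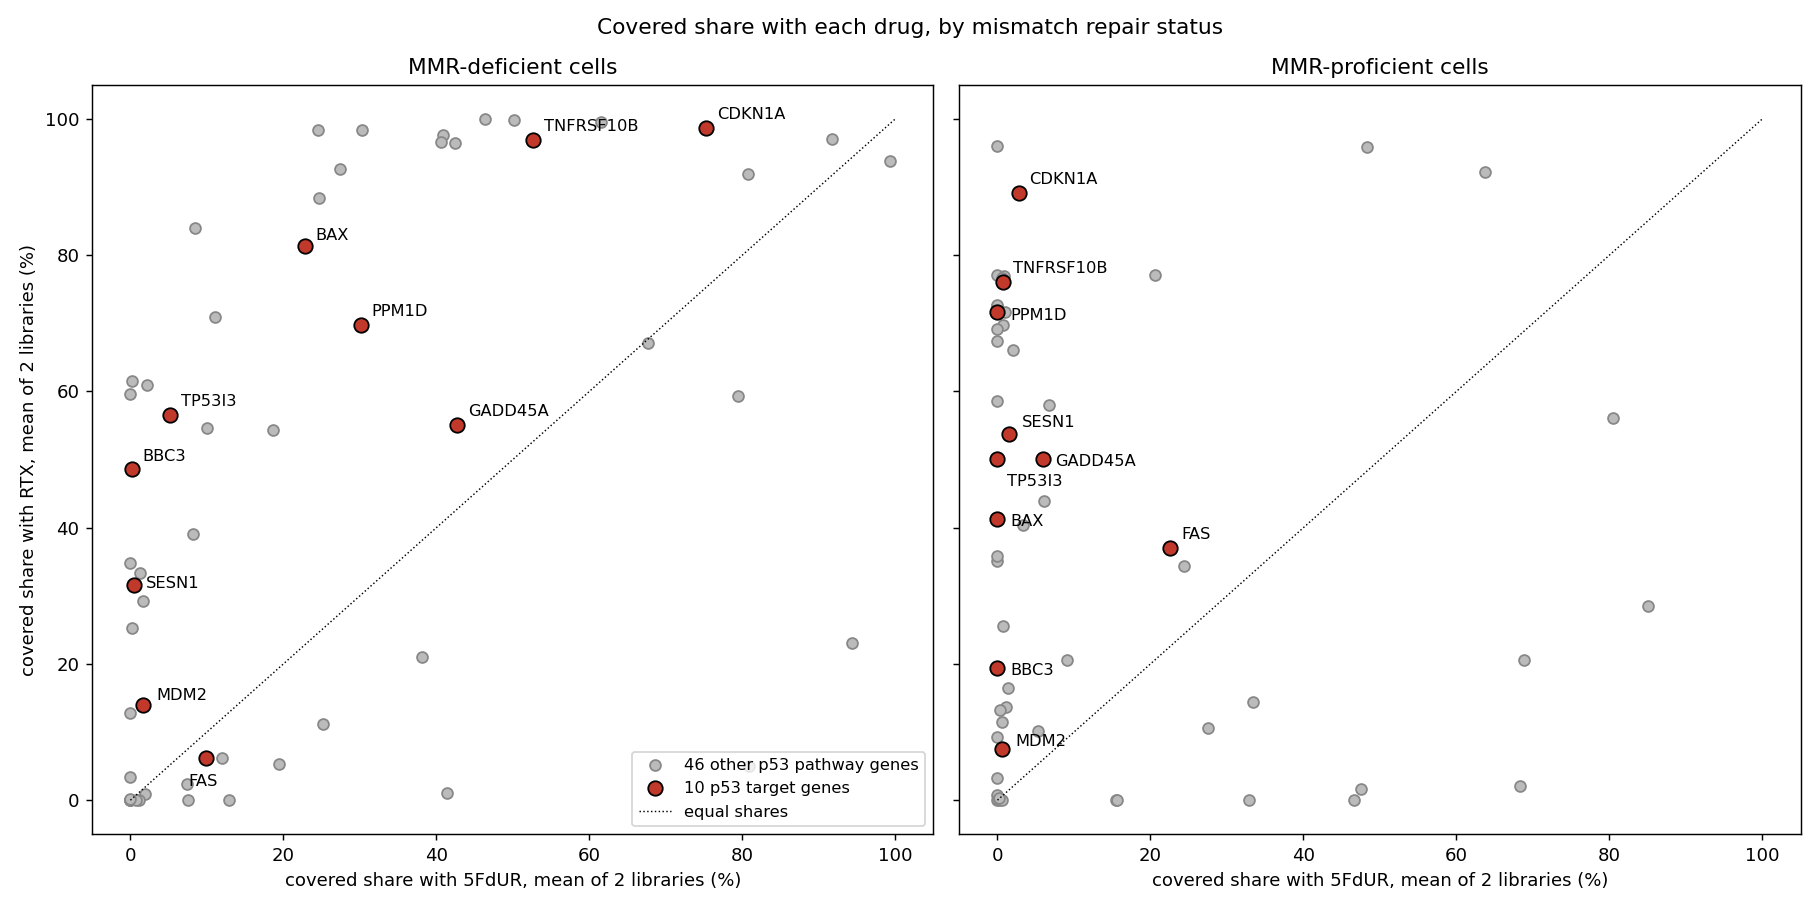
Mean covered share with 5FdUR (horizontal, %) and with RTX (vertical, %) of the 10 genes in red and 46 other p53 pathway genes in grey, in MMR deficient and MMR proficient cells, each a mean of 2 libraries. In MMR proficient cells all of the 10 genes but FAS lie at 5.91% or less with 5FdUR, while with RTX they range from 7.5% to 89.1%.

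Mismatch repair status was examined within each drug, with 2 libraries on each side. The limma p-values rest on a spread pooled over all 7 conditions, so the SDs printed beside them are not their error. Under 5FdUR, 4 genes were lower in MMR proficient cells and none higher, against 32.5% lower and 12.4% higher over all genes by limma. CDKN1A went from 75.3% ± 35 in 5FdUR_UGI to 2.75% ± 1.95 in 5FdUR_UGI_MMR (limma, adjusted p = 0.00808), and TNFRSF10B from 52.7% ± 39.2 to 0.675% ± 0.636 (limma, adjusted p = 0.00757). PPM1D went from 30.1% ± 12.5 to 0 (limma, adjusted p = 0.00198) and GADD45A from 42.7% ± 37.8 to 5.91% ± 6.07 (limma, adjusted p = 0.0471), all SD with n = 2.

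FAS was at 22.6% ± 0.485 in the MMR proficient and 9.93% ± 1.47 in the MMR deficient cells with 5FdUR, with both libraries above, and was not called (limma, adjusted p = 0.157). The GADD45A call was lost without 5FdUR_UGI replicate 1 or without either 5FdUR_UGI_MMR library, while those of CDKN1A, TNFRSF10B and PPM1D were made without each library in turn. None of the 4 was called with regions of a log2 value of at least 0.34, where their lowest adjusted p was 0.110. The median share over all protein-coding genes was also lower in these cells, 7.83% and 4.80% in 5FdUR_UGI_MMR against 20.1% and 13.5% in 5FdUR_UGI.

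The change with MMR status was set against that in cells without drug. This interaction was called for TNFRSF10B, whose 5FdUR effect was -1.01 points in MMR proficient and 51.9 points in MMR deficient cells (limma, adjusted p = 0.0484), and for PPM1D, with -0.895 and 29.2 points (limma, adjusted p = 0.0206). It was called for 13.9% of all genes in this direction and for 4.84% in the other. For CDKN1A, with 2.75 and 75.3 points, the adjusted p was 0.0567 by limma. These calls were fragile. When each of the 14 libraries was left out in turn, TNFRSF10B was called only without 5FdUR_UGI replicate 2, with adjusted p up to 0.146, and PPM1D was not called without 5FdUR_UGI_MMR replicate 2, NT_UGI replicate 2 or either NT_UGI_MMR library, with adjusted p up to 0.0793 by limma. CDKN1A was called without 5FdUR_UGI replicate 2 or either RTX_UGI_MMR library, and GADD45A and BAX were called without 5FdUR_UGI replicate 2. At a log2 value of at least 0.34 neither PPM1D (adjusted p = 0.685) nor TNFRSF10B (adjusted p = 0.664) was called by limma. All p-values above refer to the arcsine square root of the share. On shares without transformation limma called CDKN1A (adjusted p = 0.0346), but neither PPM1D (adjusted p = 0.0621) nor TNFRSF10B (adjusted p = 0.103). With a term for replicate number, limma called PPM1D (adjusted p = 0.0265) but not TNFRSF10B (adjusted p = 0.0621). Over all genes, 2789 were called in this direction, 473 without NT_UGI_MMR replicate 1 and 6728 without 5FdUR_UGI replicate 2.

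Under RTX the picture differed by gene. FAS and SESN1 were higher in MMR proficient cells, FAS at 37.0% ± 17.3 against 6.26% ± 6.42 (limma, adjusted p = 0.0203) and SESN1 at 53.7% ± 0.423 against 31.6% ± 4.04 (limma, adjusted p = 0.0173). BBC3 was lower, at 19.4% ± 14.4 against 48.7% ± 4.63 (limma, adjusted p = 0.0213). Over all genes 4.23% were called higher and 11.2% lower. The count of higher genes fell to 0 without RTX_UGI replicate 2 or RTX_UGI_MMR replicate 1 and to 1, FAS, without RTX_UGI replicate 1, and BBC3 was not called without any of these 3 libraries. The interaction with RTX was called for none of the 10 genes, against 0.469% higher and 1.98% lower over all genes by limma. Without RTX_UGI_MMR replicate 2 it was called for FAS (limma, adjusted p = 0.0209) and BBC3 (limma, adjusted p = 0.00508).

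Neither MMR status without drug nor UGI expression alone moved any of the 10 genes past the threshold, and limma called 0% of all genes in both comparisons. SESN1 was at 12.4% ± 1.17 in WT, 10.5% ± 1.41 in NT_UGI and 12.4% ± 3.76 in NT_UGI_MMR. FAS was at 3.80% ± 0.244, 6% ± 1.04 and 4.93% ± 4.40 in the same order (SD, n = 2), and the other 8 genes stayed at or below 7.19% in each of the 6 libraries.

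The log2 value of covered bases is a description, since it exists only above a threshold that differs between libraries. CDKN1A had the highest values with RTX, with means of 0.56 and 0.62 in RTX_UGI and 0.55 and 0.52 in RTX_UGI_MMR, followed by TNFRSF10B at 0.43 to 0.58 and PPM1D at 0.45 to 0.52. The other genes lay between 0.26 and 0.48 with RTX. In 5FdUR_UGI, CDKN1A was at 0.56 in replicate 1 and 0.29 in replicate 2, PPM1D at 0.52 and 0.23, and TNFRSF10B at 0.44 and 0.23. The thresholds of these replicates were 0.25 and 0.14, and these values were not tested against each other. SESN1 held similar values without drug, 0.31 to 0.42, and with RTX, 0.32 to 0.44, although more of its window was covered with RTX.

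Within the windows, regions did not sit evenly. In GADD45A the 20 kb before the gene were covered by 58.5% to 87.5% in the RTX libraries and the gene body by 0 in 3 of them and 10.7% in RTX_UGI_MMR replicate 1, whereas both 5FdUR_UGI libraries covered 86.2% of the gene body. In BBC3 the RTX libraries covered 24.0% to 98.0% of the 20 kb past the gene, while the 20 kb before it were at 0 in 3 libraries and at 27% in RTX_UGI replicate 2. PPM1D was covered by 91.0% to 100% before the gene and by at most 12.5% past it with RTX. The 20 kb past SESN1 were free of regions in all 6 non-treated libraries and covered by 42% to 96.5% with RTX.

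The annotated gene start lay in a region in all 4 RTX libraries for CDKN1A, in 2 of 4 for PPM1D, BAX, FAS and TNFRSF10B, and in none for GADD45A, MDM2, BBC3, TP53I3 and SESN1. By library, 2 to 4 of the 10 starts were in a region with RTX, against 21.2% to 38.9% of all protein-coding starts. In 5FdUR_UGI it was 5 of 10 starts in replicate 1 and 1 of 10 in replicate 2, against 39% and 34.7% of all starts. In 5FdUR_UGI_MMR it was 0, against 19.8% and 15.6% of all starts, and without drug 0, against 1.36% to 1.64%. Smoothing over 5 kb, which the authors applied to the coverage, limits how finely such positions can be read.

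The share of genes called higher differed with the base composition of the windows. Over all protein-coding genes, 10.4% of windows below 38% GC were called higher with RTX, 55.5% of those between 40 and 42% and 94.8% of those between 52 and 54%. With 5FdUR the share peaked in the middle, with 2.85% of windows below 38% GC, 54.7% of those between 44 and 46%, 30.7% of those between 52 and 54% and 19.9% of those above 54% called higher. The 10 windows had a median GC content of 43.7%, against 44.4% over all genes, from 38.3% in SESN1 and 39.5% in FAS to 52.6% in BBC3 and 52.8% in BAX. CDKN1A, at 48.7%, had a mean of 93.9% with RTX where the median of the 1746 genes with 48 to 50% GC was 68.7%. BBC3, at 34.0%, was below the median of 63.5% of the 1396 genes with 52 to 54% GC, and SESN1, at 42.7%, was above the median of 7.26% of the 2501 genes with 38 to 40%. The part of base composition in the drug differences was not tested.

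**Figure D3:**
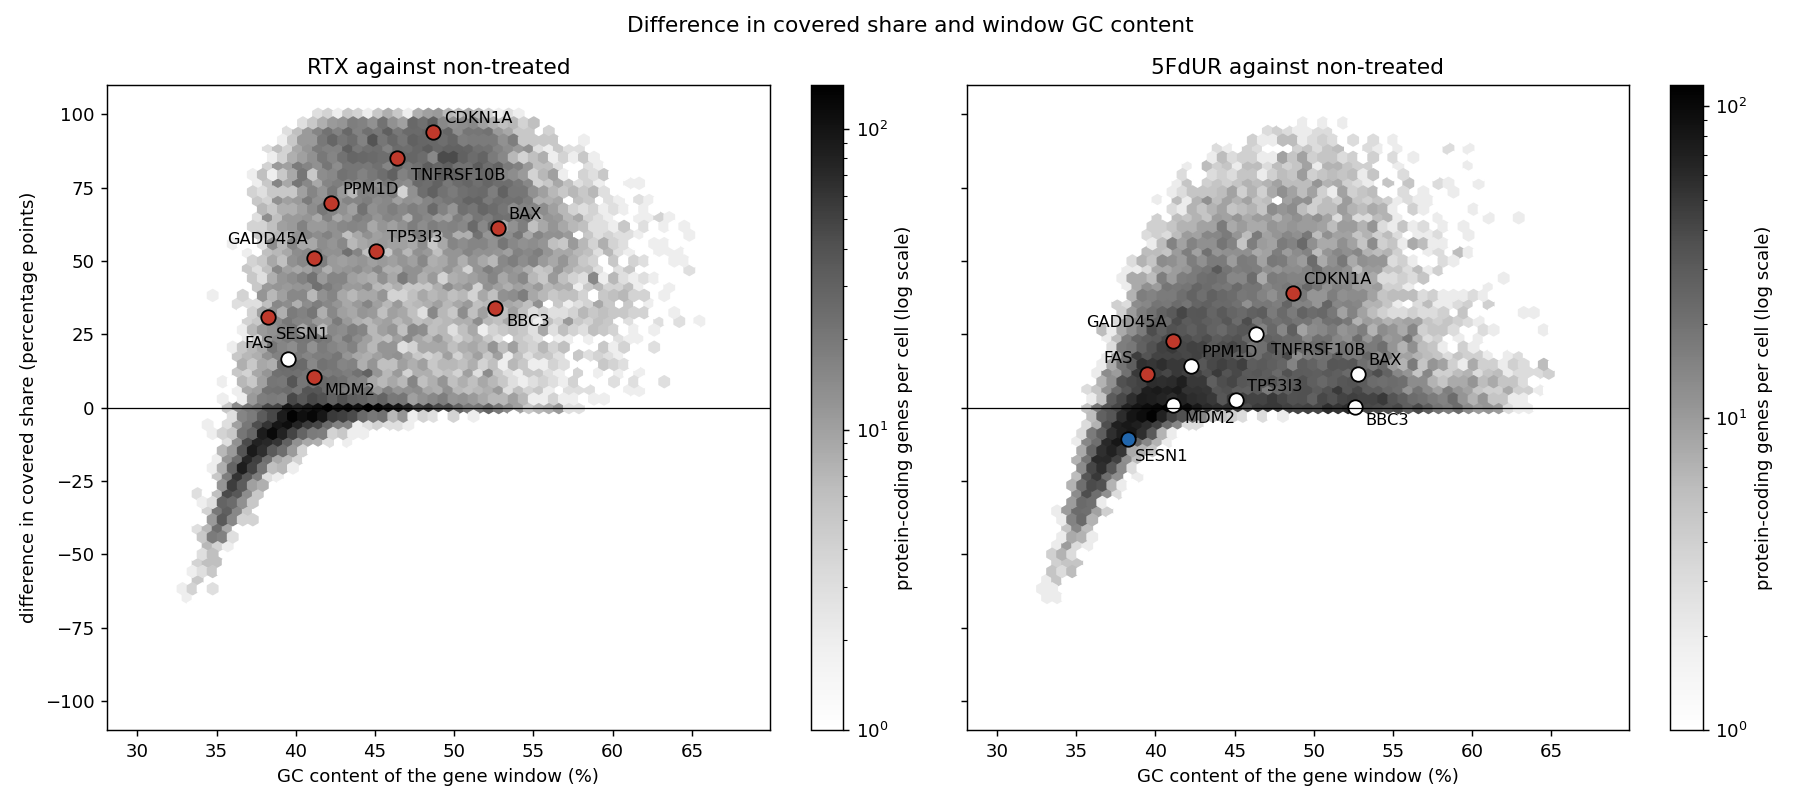
Difference in covered share from the non-treated mean (percentage points) against GC content of the gene window (%), for all 20033 protein-coding genes as grey cells (log colour scale) and the 10 p53 target genes as circles, red where called higher, blue where called lower and white where not called. With RTX 9 circles are red, and with 5FdUR SESN1 lies at -10.8 points while CDKN1A lies at 39.0 points.

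The chromosomes of the 10 genes had their own levels. Chromosome 17, with PPM1D, was covered by 37.6% with RTX and 3.71% without drug, and chromosome 19, with BAX and BBC3, by 28.3% and 1.40%. Chromosome 8, with TNFRSF10B, was covered by 11.8% with RTX and 13.9% without drug, and chromosome 6, with CDKN1A and SESN1, by 15.9% and 13.6%. Thus CDKN1A and TNFRSF10B had the highest shares with RTX on chromosomes whose totals with RTX and without drug were close to each other.

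K562, with 1 library, had no region in 8 of the 10 windows, and 56.4% of all protein-coding windows had none. FAS, at 3.63%, lay within the non-treated HCT116 range, and SESN1, at 6.87%, lay below it. The difference between the lines has no replicate check.

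Other genes of the pathway were read from a list of 46, in which 23 were called higher in drug-treated cells, 6 lower and 17 neither. Of all protein-coding genes 51.5% were called higher, against 50% of this list, and the median difference was 27.8 points. With RTX 33 of 46 were called higher and 6 lower, against 66.9% and 14.7% of all genes, and with 5FdUR 12 were called higher and 7 lower, against 36.1% and 8.66%. The counts by role, with drug, stand beside 51.5% higher and 9.59% lower over all genes. Of the 14 apoptosis genes 10 were called higher and 0 lower. Several TRAIL receptor genes among them lie on chromosome 8 with similar shares, so they may not be separate evidence. The apoptosis windows had a median GC content of 46.5%, against 44.4% over all genes. Of the 7 genes of cell cycle arrest 1 was called higher and 2 lower. Of the 4 feedback genes 2 were higher and 1 lower, of the 6 DNA repair genes 4 and 2, of the 10 genes of metabolism and stress 4 and 1, and of the 5 genes of p53 and its upstream kinases 2 and 0.

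BTG2, an antiproliferative gene on chromosome 1, was covered by 57.2% to 100% with drug and by 0 without, a difference of 87.2 points (adjusted p = 0.00355, exact permutation test). PERP, a cell adhesion gene tied to apoptosis, was covered by 45.8% to 100% with drug and 0 to 12.7% without, a difference of 78.7 points (adjusted p = 0.00469, exact permutation test). TNFRSF10C, a decoy receptor of TRAIL that lies on chromosome 8 as TNFRSF10B does, was covered by 0 to 100% with drug, a difference of 60.6 points (adjusted p = 0.0270, exact permutation test). The distance between their windows is not given here, so TNFRSF10B and TNFRSF10C need not be separate findings.

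At the other end stood genes with a lower covered share with drug, which does not show that they held less uracil. POLK, a translesion polymerase, was covered by 14.2% to 36.5% without drug and at most 0.651% with drug, a difference of -21.2 points. COP1, a ubiquitin ligase that targets p53, was covered by 18.5% to 22.3% without drug and at most 1.52% with drug, a difference of -19.6 points. ACAD11, an acyl-CoA dehydrogenase, was covered by 9.79% to 19.3% without drug and at most 0.352% with drug, a difference of -15.2 points. Each had an adjusted p of 0.00355 in the exact permutation test and a window GC content below 38%.

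The gene on another chromosome whose shares were nearest over the 15 libraries was SDE2 for CDKN1A, at a mean absolute difference of 0.975 points, ORAI2 for BBC3, at 0.750, and UPK3B for MDM2, at 0.872. For TP53I3 it was CLUAP1 at 1.24 points, for BAX SYNPO2L at 1.55, for TNFRSF10B PIAS3 at 1.80 and for PPM1D CDC25C at 2.39. GADD45A had UPF3A at 3.37 points, FAS had HECW2 at 3.47 and SESN1 had FUBP1 at 3.81. These values describe likeness of pattern over 15 libraries that share thresholds and base composition.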

How the data were processed

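DNA fragments holding uracil or fluorouracil were enriched with the ΔUNG sensor, a FLAG-bearing uracil-DNA glycosylase without catalytic activity, and sequenced beside input DNA. The authors aligned reads with BWA 0.7.17-r1194 to GRCh38, removed duplicate, ambiguous and blacklisted reads with SAMtools 1.9-50 and Picard, and used deepTools 3.2.1 for scaled coverage in 100 bp bins smoothed over 5 kb. The deposited log2 values are the enriched over input ratio averaged over each region, where regions join bins above a threshold set per library. Read depth is not in these files, so no counting interval is given and replicate spread is the only error. The 15 replicate region files were used; the 7 merged files served as an alternative.

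For each GENCODE 44 gene, the covered share is the percentage of known window bases in regions, with bases in assembly gaps left out of both counts. Comparisons used two-sided exact permutation tests and limma 3.58.1 (R 4.3.3) on the arcsine square root of the share, with the 7 condition means, both adjusted over 20033 genes. Python 3.11.15 and NumPy 2.4.6 were used, and tests were tried on simulated data. Replicate numbers were not taken to pair the samples. The genes named are the 10 targets, the 3 highest and 3 lowest differences of the 46-gene list, and the nearest pattern on another chromosome for each target. Genes and lists were chosen with earlier results of these data known. p53 matches needed both 4-base cores intact.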

Additional observations from a re-analysis of the deposited data

Results flagged for a closer look

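In 26 groups of 4 or 6 libraries with any spread, a library at either end was compared with its neighbour by Dixon's test, and 5 passed. Chance passes about 1 of 20 groups of normal values from 1 distribution, whereas these are bounded shares that pool conditions. For CDKN1A with RTX, RTX_UGI_MMR replicate 1 was lowest at 78.2%, next to 97.2%. For GADD45A without drug, NT_UGI replicate 2 was highest at 7.19%, next to 2.55%. With 5FdUR, 5FdUR_UGI replicate 1 stood alone above libraries at 0 for BAX at 45.5%, TP53I3 at 10.5% and BBC3 at 0.345%. With all other libraries of the group at 0, any value above 0 would have passed for these genes.

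The effects of the drugs differed by limma for 9 of the 10 genes. The 5FdUR effect minus the RTX effect was -54.9 points for CDKN1A, -28.3 for GADD45A, -9.57 for MDM2, -55.6 for PPM1D, -50.0 for BAX, -34.0 for BBC3, -50.7 for TP53I3, -59.9 for TNFRSF10B and -41.7 for SESN1. The exact permutation test called none of them, with a lowest adjusted p of 0.0731. The 5FdUR effect also differed with MMR status, by -30.1 points for PPM1D and -52.9 points for TNFRSF10B, by the limma interaction on the arcsine square root scale. On shares without that transformation limma called neither interaction. When each library was left out in turn, that of TNFRSF10B was called only without 5FdUR_UGI replicate 2.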

How the results depend on the processing

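Of the 10 genes, 5 were called higher with drug, beside 51.5% of all genes. The count was 3 with regions of at least 5 kb (26.8% of all genes), 2 with gene bodies alone (33.4%) or without WT (22.1%), 9 by limma (73.4%), and 0 with regions of a log2 value of at least 0.34 (5.64%), with the strongest 300 Mb (9.18%), with means of conditions and with the merged files (0% of all genes in both). It ran from 2 to 5 when each library was left out (36.5% to 56% of all genes). Means of conditions and merged files allow so few splits that a call needs most of all genes at the smallest p. Their counts thus cannot show that a difference was lost. With 5FdUR the count of 3 higher became 0 with regions of at least 5 kb or a log2 value of at least 0.34. It was also 0 with the strongest 300 Mb or gene bodies alone, and 1 with 5 kb flanks or shares relative to the genome. The next paragraph gives the counts over all genes for regions of at least 5 kb, that log2 value and the strongest 300 Mb. None is given for gene bodies, 5 kb flanks or relative shares with 5FdUR, so those counts are no result about the genes. limma called 5 higher. The 1 lower became 0 with regions of at least 5 kb and at that log2 value. Leaving out libraries gave 2 to 3 higher (32.7% to 44.7% of all genes). With RTX 3 were higher and 1 lower with the strongest 300 Mb, and 9 to 10 were higher without each library (64.4% to 65.5% of all genes). limma called 9 lower with 5FdUR than with RTX. FAS changed sign with the strongest 300 Mb, at -0.787 points with drug and -3.94 with RTX, and at a log2 value of at least 0.34, at -0.782 with 5FdUR. SESN1, not called with drug, also did with the strongest 300 Mb. For MMR status at that log2 value, 0 were lower with 5FdUR and 0 higher with RTX, beside 1591 and 324 of all genes. Leaving out each library was a choice made after seeing the data. It gave 3 to 6 lower with 5FdUR, beside 3410 to 8246 of all genes. With RTX it gave 0 to 2 higher and 0 to 1 lower, beside 268 to 1037 and 724 to 3187 of all genes. At 1 mismatch, 2 genes had a p53 match. The cause of these changes was not tested, and a count among the 10 genes without a share of all genes beside it is no result about them.

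With the replicate block, the permutation test called 4 genes higher with drug, 3 higher and 1 lower with 5FdUR, and 9 higher with RTX. The shares of all genes in that setting are not given, so these counts are no result about the genes. With the block, limma called 3 lower with MMR proficiency under 5FdUR, beside 6159 of all 20033 genes, and GADD45A had an adjusted p of 0.0529 by limma. Deviations of same-numbered samples correlated between -0.307 and 0.201 over 21 pairs of conditions, with 2 above 0.1. These 2 were RTX_UGI with RTX_UGI_MMR, at 0.201, and 5FdUR_UGI with 5FdUR_UGI_MMR, at 0.128. The authors sequenced at BGI or Novogene on different platforms, and whether same-numbered samples shared such a batch was not tested. Over all genes, 10311 were called higher with drug, and 7304 to 11215 when each library was left out. This count was 5364 with regions of at least 5 kb, 1129 at a log2 value of at least 0.34 and 1839 with the strongest 300 Mb. With 5FdUR 7230 genes were called higher, and 3535, 0 and 2636 in the same settings, and 11514 by limma. With RTX 13394 were called higher, and 6531 with the strongest 300 Mb, while 2940 were lower, and 980 with regions of at least 5 kb. With MMR proficiency under 5FdUR 6514 were lower and 2480 higher, and 1591 and 43 at a log2 value of at least 0.34, and under RTX 848 were higher, and 324 at that value. Tests on MMR proficient cells alone, on condition means or merged files for single drugs, and on the block for 5FdUR against RTX cannot reach the threshold and give no call.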
